A study of Mus musculus with 6 samples.

Results

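The neuregulin genes Nrg1, Nrg2, Nrg3 and Nrg4 and the ErbB receptor genes Egfr, Erbb2, Erbb3 and Erbb4 were followed across the nuclei of the degenerating mouse retina. These 8 genes were taken by symbol from the 32285 features of the count matrices, and the rule that lists them uses no measured value. They were, however, chosen with earlier results of these data known. Neuregulins are growth factors with an EGF-like domain, and most are made as membrane-bound precursors that are shed or that signal to a neighbouring cell. Neuregulins bind ErbB3 and ErbB4, ErbB2 has no ligand of its own and pairs with the other receptors, and ErbB3 has a weak kinase. Egfr (ErbB1) answers to EGF, TGF-alpha and related ligands instead. In neural tissue these ligands and receptors are known for roles in myelination, glial development and the function of inhibitory synapses.

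All retinas came from mice of the strain B6.CXB1-Pde6b-rd10/J, in which a hypomorphic Pde6b allele makes rods die early and cones follow. Eyes received an intravitreal injection at postnatal day 18 of saline or of 20 ng recombinant IL-27, a cytokine of the IL-12 family, and retinas were collected at postnatal day 20. Single-nucleus RNA libraries were made from 3 saline-injected samples (libraries 1, 2 and 6) and 3 IL-27-injected samples (libraries 4, 5 and 10), so that both groups carried the retinal mutation and an injection, and no uninjected retina was among them. The labels do not say whether each library came from a separate animal, so the p-values below measure the spread between these libraries.

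After removal of poor nuclei and predicted doublets, 52258 nuclei remained, with 8251 to 9168 nuclei and a median of 2782 to 3788 UMIs (unique molecular identifiers, 1 per captured RNA molecule) per library. Clustering was run without the 8 genes and without 72 other genes of the EGF and ErbB pathway. By fixed marker genes, 49592 nuclei fell into 16 types, and each type name below stands for nuclei resembling that type. A further 1525 bipolar or amacrine nuclei stayed unnamed and 1141 nuclei carried markers of more than 1 class and were set aside. Pairs of libraries shared 18 to 30 cell barcodes, and the smallest type held 14 nuclei in 1 library. A level below is the UMI count of a gene relative to all UMIs summed over the nuclei of a type in 1 library, in CPM, given as mean ± SD over the 6 libraries (n = 6) unless a group is named.

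Nuclear libraries capture unspliced RNA, so a longer gene gives more UMIs, and levels are set side by side between genes only per kb of gene span. In the GENCODE M21 annotation (GRCm38), which held 32158 of the 32285 identifiers, Nrg1 spans chromosome 8 from 31814551 to 32884029, Nrg3 spans chromosome 14 from 38368952 to 39473088 and Erbb4 spans chromosome 1 from 68032186 to 69108059, over 1069, 1104 and 1076 kb. Nrg2 (chromosome 18, 36017652 to 36197380), Egfr (chromosome 11, 16752203 to 16918158) and Nrg4 (chromosome 9, 55220222 to 55326844) are shorter, and Erbb2 (chromosome 11, 98412470 to 98437716) and Erbb3 (chromosome 10, 128567523 to 128589652) span 25.2 and 22.1 kb. Per kb of gene span, the highest level of any type was 18.3 CPM for Nrg1, 4.49 for Nrg3, 2.49 for Egfr, 2.06 for Erbb4, 1.91 for Nrg2, 0.580 for Erbb2, 0.309 for Nrg4 and 0.0714 for Erbb3.

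**Figure D1:**
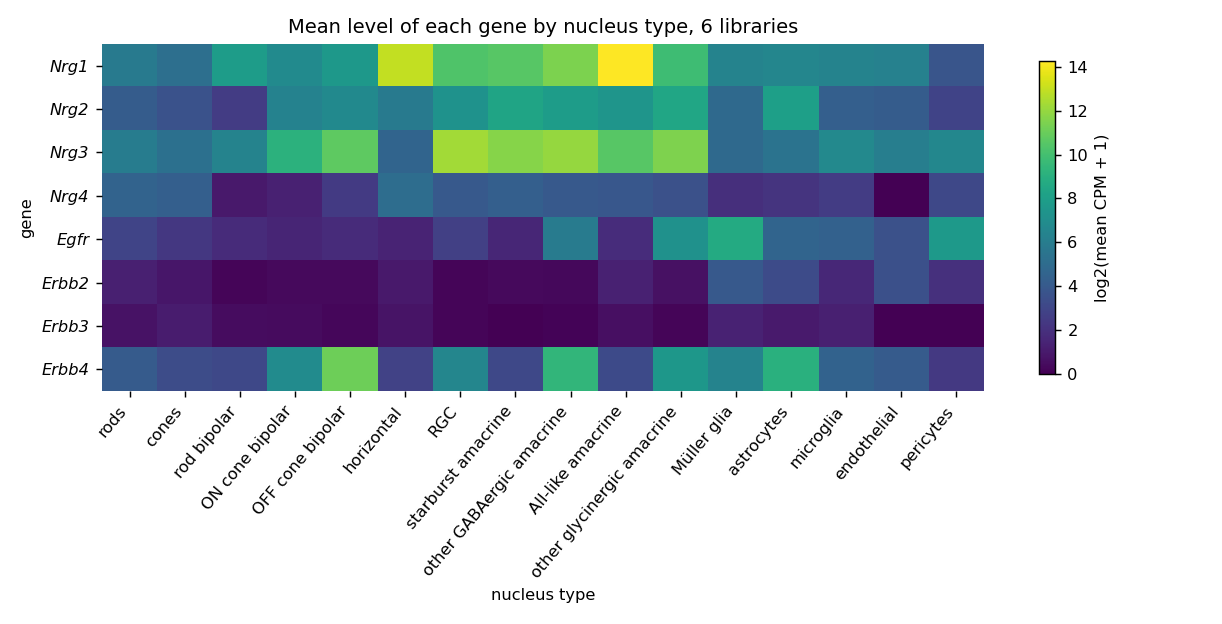
Mean level of the 8 genes (rows) in the 16 nucleus types (columns), as log2(mean CPM + 1) over the 6 libraries, shown by colour. Nrg1 is brightest in AII-like amacrine and horizontal nuclei, Nrg3 in RGC and amacrine nuclei, Erbb4 in OFF cone bipolar nuclei and Egfr in Müller glia. Erbb2 and Erbb3 are dark in every neuronal type. Colours are not scaled by gene span, so they compare types within a row and not genes.

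Nrg1, whose protein is the best studied neuregulin of myelinating and synaptic contacts, reached its highest level in AII-like amacrine nuclei, the glycinergic interneurons that carry rod signals to the cone pathway. The 3 saline libraries gave 19395, 19267 and 18916 CPM and the 3 IL-27 libraries 19740, 20390 and 19902 CPM, a mean of 19602 ± 521 CPM. The 6 libraries lay close together, with each IL-27 library above each saline library. Horizontal nuclei, the lateral inhibitory neurons of the outer plexiform layer, came next at 7962 ± 354 CPM. Other GABAergic amacrine nuclei (2736 ± 273 CPM), starburst amacrine nuclei (1490 ± 228 CPM), RGC (1294 ± 89.2 CPM) and other glycinergic amacrine nuclei (919 ± 43.8 CPM) followed. Rod bipolar nuclei held 238 ± 22.6 CPM, and every remaining type stayed below 200 CPM. Amacrine nuclei of the 4 named types held 68.5 ± 1.60% of all Nrg1 UMIs of the retina, and horizontal nuclei, only 494 of the 52258 nuclei, held 11.0 ± 2.06%.

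Nrg3, a neuregulin largely restricted to neurons that binds ErbB4, was spread over inner retinal neurons. RGC, the output neurons of the retina, had the highest level, with 5127, 4894 and 4627 CPM after saline and 5095, 5234 and 4756 CPM after IL-27, so that the groups overlapped. Other GABAergic amacrine (4168 ± 216 CPM), starburst amacrine (3269 ± 174 CPM) and other glycinergic amacrine nuclei (2859 ± 62.6 CPM) stood below RGC, followed by OFF cone bipolar (1715 ± 122 CPM), AII-like amacrine (1478 ± 98.9 CPM) and ON cone bipolar nuclei (579 ± 51.3 CPM). Photoreceptors, Müller glia and horizontal nuclei held 23.5 to 62.8 CPM. Horizontal nuclei, second in the order for Nrg1, were last in the order for Nrg3. Saline library 6 gave 80.5 CPM of Nrg3 in them against 6.73 to 18.6 CPM in the other 5.

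Nrg2, a neuregulin related to Nrg1 that also binds ErbB3 and ErbB4, had a narrower range of levels. Other glycinergic amacrine (343 ± 28.1 CPM) and starburst amacrine nuclei (315 ± 33.8 CPM) were highest, and the next type was glial, the astrocytes (263 ± 70.1 CPM, from 290 UMIs in 277 nuclei). Rod bipolar nuclei had the lowest level at 4.71 ± 1.16 CPM. Nrg4, best known as a factor released by brown fat that binds ErbB4, was scarce throughout, with 2519 UMIs in all nuclei. Its level was 33.0 ± 6.50 CPM in horizontal nuclei, 22.5 ± 2.84 CPM in rods and 19.2 ± 5.22 CPM in cones, rod bipolar nuclei held 13 of its UMIs, and no Nrg4 UMI was counted in endothelial nuclei. Of the 4 neuregulins, Nrg4 was the 1 whose 3 leading types by mean included rods and cones. Starburst amacrine nuclei (18.6 ± 7.57 CPM) were close to cones, which stood above them in 3 of the 6 libraries, so this order was not settled.

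Among the receptors, Erbb4, the neuregulin receptor with an active kinase, was highest in OFF cone bipolar nuclei, which signal light decrements. Levels were 2254, 2221 and 2198 CPM after saline and 2653, 2346 and 1625 CPM after IL-27, the latter spread on both sides of the former. Other GABAergic amacrine nuclei (662 ± 72.5 CPM) and astrocytes (524 ± 228 CPM) followed, then other glycinergic amacrine (186 ± 16.8 CPM), ON cone bipolar (116 ± 25.5 CPM) and RGC (93.5 ± 20.3 CPM). AII-like amacrine (8.19 ± 4.38 CPM), starburst amacrine (7.46 ± 3.38 CPM) and horizontal nuclei (5.94 ± 3.45 CPM) were near the bottom of the order. Horizontal nuclei and AII-like nuclei as classed here thus had the highest Nrg1 and low Erbb4 levels. The AII-like level depends on leaving out a subcluster with AII markers and 1507 ± 231 CPM of Erbb4, described with the amacrine subclasses, by a rule set after its values were seen.

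Egfr, the receptor of EGF and TGF-alpha, was highest in Müller glia, while astrocytes (23.4 ± 10.6 CPM) and microglia (20.5 ± 19.4 CPM) stood below 2 amacrine types. Müller glia, which span the retina and support its neurons, held 403, 355 and 505 CPM after saline and 413, 409 and 391 CPM after IL-27, and contained 58.3 ± 3.19% of all Egfr UMIs. Pericytes (101 to 307 CPM over the libraries, from 51 UMIs), other glycinergic amacrine (149 ± 15.6 CPM) and other GABAergic amacrine nuclei (59.3 ± 3.38 CPM) came next, and bipolar, horizontal, starburst and AII-like nuclei held 1.72 to 2.48 CPM. Erbb2, the co-receptor without a ligand, reached 14.7 ± 1.44 CPM in Müller glia, which held 74.4 ± 6.71% of its 481 UMIs. Endothelial nuclei and astrocytes had means of 10.4 ± 12.9 and 8.52 ± 9.81 CPM from 6 and 10 UMIs, and no neuronal type exceeded 1.43 CPM. Erbb3, the kinase-weak neuregulin receptor, was counted only 99 times in all nuclei and had its highest level in Müller glia at 1.58 ± 0.354 CPM, while starburst amacrine, endothelial and pericyte nuclei held none. At this depth the order of types for Erbb3 could not be set.

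The order of levels was checked between neighbouring types with a two-sided exact sign-flip permutation test over the 6 within-library differences of log2(CPM + 1). Of the 120 neighbouring pairs of the 8 genes, 28 differed in the same direction in all 6 libraries, which gives the smallest p the test allows (p = 0.03125, exact) and an adjusted p of 0.134 over the 120 pairs, so that no pair passed 0.05 after adjustment. Nrg3 had 8 such pairs and kept the order RGC, other GABAergic, starburst, other glycinergic, OFF cone bipolar, AII-like and ON cone bipolar in every library. Nrg2 had 7 and Nrg1 had 6, among them AII-like over horizontal (a mean difference of 1.30 ± 0.0664 on the log2 scale, SD) and horizontal over other GABAergic amacrine nuclei (1.55 ± 0.184). Erbb4 had 4, including OFF cone bipolar over other GABAergic amacrine nuclei (1.73 ± 0.270), and Egfr had 3, including Müller glia over pericytes. Other pairs changed direction between libraries. Starburst amacrine nuclei stood over RGC for Nrg1 in 5 of 6 libraries, and other glycinergic over starburst amacrine nuclei for Nrg2 in 5. Other GABAergic amacrine nuclei stood over astrocytes for Erbb4 in 4. Nrg4, Erbb2 and Erbb3 had no pair with the same direction in all 6 libraries. The types were ordered by their means over these same 6 libraries.

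**Figure D2:**
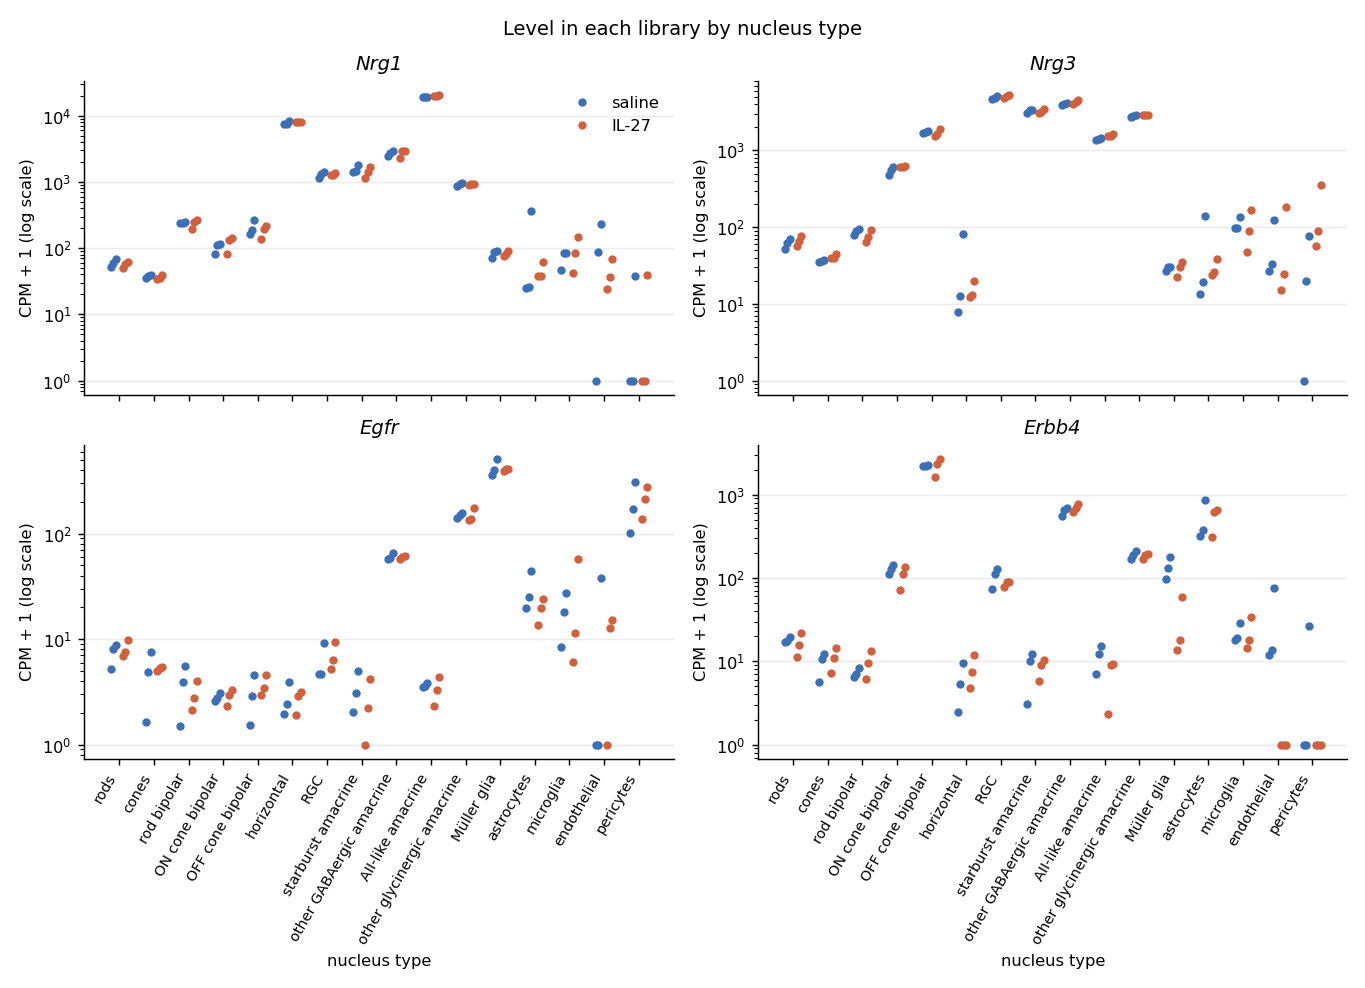
Level of Nrg1, Nrg3, Egfr and Erbb4 in each library (CPM + 1, log axis) for the 16 nucleus types, 3 saline points beside 3 IL-27 points per type. The points of both groups lie together in most types, and those of Erbb4 in Müller glia stand apart, with saline libraries from 96.2 to 176 CPM above IL-27 libraries from 12.6 to 58.0 CPM.

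Bipolar subclasses were compared within libraries, to see which genes separate OFF from ON and rod from cone pathways. Of the 8 genes, 4 passed the filter on low counts in OFF against ON cone bipolar nuclei, and all 4 were higher in OFF nuclei (edgeR with the library as a block, adjusted p under 0.05), against 28.9% of all genes tested being called in either direction. Erbb4 differed by 4.33 ± 0.0553 on the log2 scale (SE, adjusted p = 3.41e-35, edgeR), Nrg3 by 1.64 ± 0.0496, Nrg1 by 0.88 ± 0.106 and Nrg2 by 0.53 ± 0.0717. Nrg4, Egfr, Erbb2 and Erbb3 were too scarce in these nuclei to be tested. Rod bipolar nuclei, against ON cone bipolar nuclei, had less Erbb4 (log2 difference -3.89 ± 0.126), less Nrg2 (-3.96 ± 0.131) and less Nrg3 (-2.74 ± 0.0644) and more Nrg1 (1.19 ± 0.0750), again 4 of 4 genes tested against 41.6% of all genes.

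Within OFF cone bipolar nuclei, Erbb4 was carried by 1 of 5 subclusters. This subcluster, led by Angpt1, Kcnh7 and Ccdc85a beside Erbb4 itself, which had not been used for clustering, held 20.0% of the OFF cone bipolar nuclei and 95.4% of their Erbb4 UMIs. Its level was 11592 ± 1268 CPM, against 9.03 to 329 CPM in the other 4 subclusters. Nrg3 was arranged differently: it was highest at 5283 ± 426 CPM in the OFF subcluster led by Nxph1 and Brinp1 and at 3409 ± 36.8 CPM in the one led by Hs3st2 and Pcdh17, and stood at 563 ± 172 CPM in the subcluster rich in Erbb4. Among 6 ON cone bipolar subclusters, Erbb4 ranged from 4.92 to 387 CPM and Nrg3 from 198 to 1882 CPM, the latter in nuclei led by Stard13 and Chrm2. Nrg1 had its highest bipolar level, 583 ± 221 CPM, in the ON subcluster led by Pcdh11x and Skor2 and reached 428 ± 87.2 CPM in the OFF subcluster rich in Erbb4. The bipolar subcluster with the most Erbb4 was therefore second in Nrg1, while 3 of the other 4 OFF subclusters had more Nrg3.

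**Figure D3:**
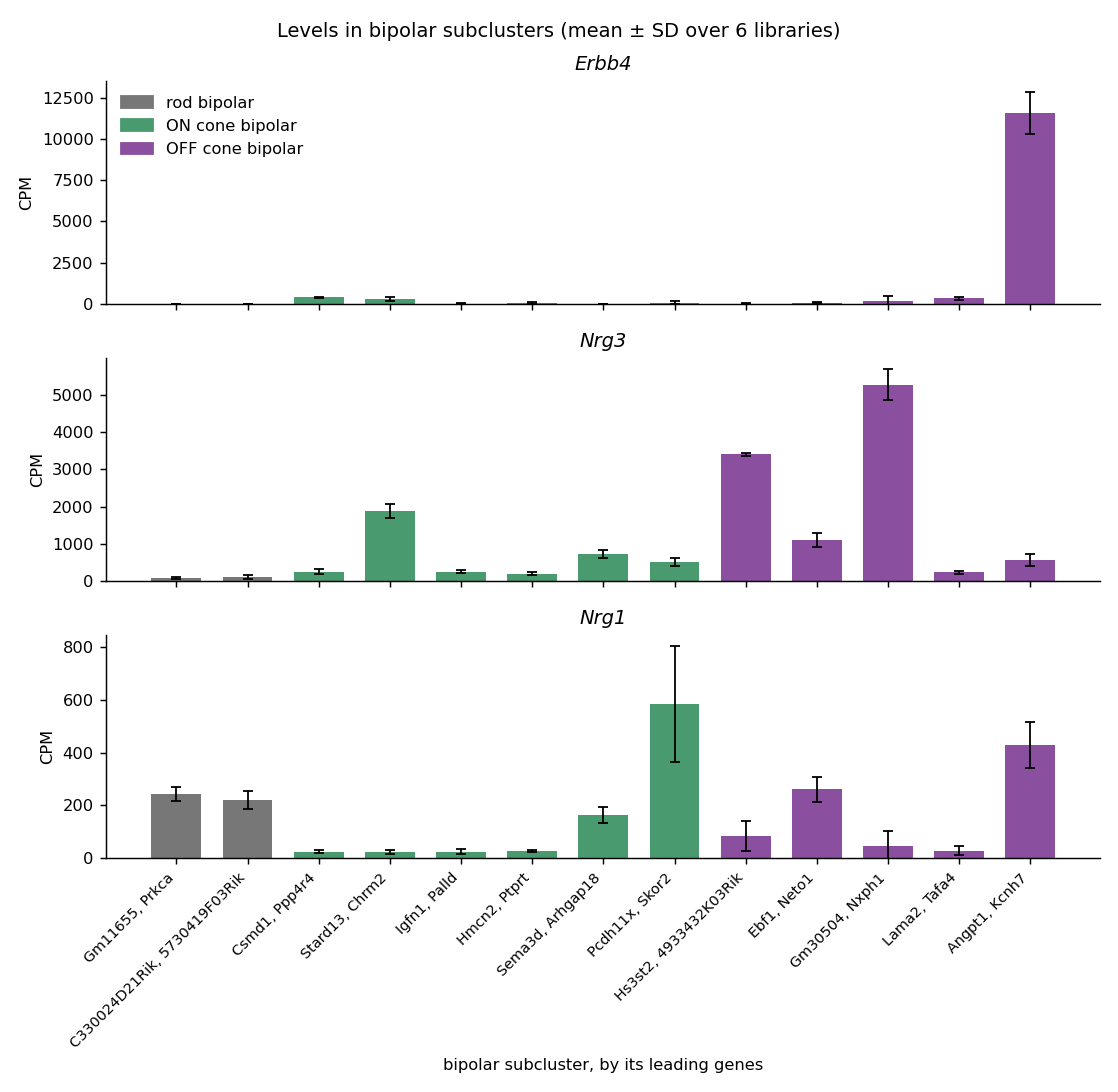
Levels of Erbb4, Nrg3 and Nrg1 (CPM, linear axes from 0) in the 13 named bipolar subclusters, each given by 2 of its leading genes; bars are means and whiskers SD over 6 libraries. Grey, green and purple mark rod, ON cone and OFF cone bipolar nuclei. The Erbb4 bar of the OFF subcluster led by Angpt1 and Kcnh7, at 11592 CPM, stands above all others of its panel, and the highest Nrg3 and Nrg1 bars belong to other subclusters.

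Amacrine subclasses were compared next, since Nrg1 and Erbb4 are both known from inhibitory neurons. AII-like against other glycinergic amacrine nuclei gave calls for 5 of the 6 genes tested, against 43.2% of all genes. Nrg1 was higher in AII-like nuclei by 4.48 ± 0.0393 on the log2 scale (SE, adjusted p = 4.62e-66, edgeR), while Erbb4 (-4.41 ± 0.143), Egfr (-5.82 ± 0.176), Nrg2 (-0.90 ± 0.0609) and Nrg3 (-0.89 ± 0.0362) were lower. Nrg4 gave 0.45 ± 0.223 (unadjusted p = 0.0485, edgeR) and did not pass the adjusted threshold. The size of the Erbb4 difference depended on the clustering, at -1.98 when the 8 genes and the pathway list were kept for clustering, -1.99 at the finer resolution and -0.84 without doublet removal. A subcluster of 296 nuclei led by Nfib and Col12a1 held 62.4% of the Erbb4 UMIs of other glycinergic nuclei, at 1507 ± 231 CPM; it carried AII markers but not Gjd2, the gene of the connexin that couples AII cells, and was kept out of the AII-like class by a rule set after its values were seen. Its Nrg1 level was 417 ± 170 CPM and its Nrg3 level 4164 ± 318 CPM.

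Starburst amacrine nuclei, the cholinergic neurons of direction selectivity, differed from other GABAergic amacrine nuclei in 5 of 6 genes tested, against 43.4% of all genes. Erbb4 (-6.38 ± 0.125), Egfr (-4.86 ± 0.244), Nrg1 (-0.80 ± 0.0602) and Nrg3 (-0.27 ± 0.0428) were lower in starburst nuclei and Nrg2 was higher (0.52 ± 0.0608), with an adjusted p of 2.03e-06 or less for each (edgeR). Nrg4 gave 0.41 ± 0.189 (adjusted p = 0.0776, edgeR). Over all subclusters, GABAergic against glycinergic nuclei gave calls for 6 of 6 genes tested, against 48.1% of all genes: Erbb4 (2.05 ± 0.0528), Nrg3 (0.73 ± 0.0322) and Nrg4 (0.49 ± 0.108) were higher in GABAergic nuclei, and Egfr (-1.08 ± 0.0529), Nrg1 (-0.95 ± 0.0480) and Nrg2 (-0.27 ± 0.0363) were higher in glycinergic nuclei. Glycinergic nuclei here include the AII-like nuclei, without which the order of Nrg1 was the opposite, with 2736 ± 273 CPM in other GABAergic and 919 ± 43.8 CPM in other glycinergic nuclei. Without doublet removal the Nrg1 difference was -1.52, and that between starburst and other GABAergic nuclei was -0.38 for Nrg1 and -2.70 for Egfr; with the 8 genes and the pathway list kept for clustering the latter Nrg1 difference was -0.41.

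Other GABAergic amacrine nuclei fell into 20 subclusters. Nrg1 ran from 211 to 11754 CPM, with the highest levels in nuclei led by Pdgfra and Piezo2 (11754 ± 1381 CPM) and in those led by Vip, the gene of vasoactive intestinal peptide, and Cbln4 (9565 ± 1291 CPM). Erbb4 ran from 22.5 to 5165 CPM and passed 1000 CPM in 4 subclusters. Its highest level, 5165 ± 1164 CPM, was in nuclei led by Dkk2, Kcnd2 and Bcl11b, followed by those led by Svep1, Epha3 and Npy (2481 ± 259 CPM). The Vip subcluster, second in Nrg1, was the last of these 4 in Erbb4 (1545 ± 265 CPM). Nrg3 ran from 1827 to 7026 CPM and passed 1000 CPM in all 20 subclusters. Nrg2 stayed between 110 and 370 CPM in 19 of them and reached 779 ± 85.7 CPM in nuclei led by Pantr1, Cbfa2t3 and Pou3f3. Egfr ran from 0 to 177 CPM and was highest in nuclei led by Tfap2e and Tshr. Among the 11 subclusters of other glycinergic nuclei, Egfr ran from 2.38 to 422 CPM and was highest in nuclei led by Esr1 and Igf1 (422 ± 47.3 CPM), against 413 ± 49.9 CPM in Müller glia, a gap smaller than the spread of either. Those nuclei made up 21.4% of the other glycinergic nuclei.

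Cones and rods differed little. Of 6 genes tested, 3 were lower in cones, against 53.4% of all genes: Erbb4 (-0.58 ± 0.194), Nrg3 (-0.52 ± 0.0959) and Nrg1 (-0.46 ± 0.0967), from levels of 9.12 to 62.8 CPM in both types. Microglia, a type of another lineage, held 80.8 ± 38.6 CPM of Nrg1, 105 ± 40.9 CPM of Nrg3 and 21.2 ± 7.72 CPM of Erbb4, so the photoreceptor levels are no higher than those of a type outside the neurons, and the part of free RNA in them was not tested. The Nrg1 difference was 0.10 (adjusted p = 0.659, edgeR) when nuclei of extreme depth were kept in the sums. Müller glia against astrocytes gave calls for 3 of 7 genes tested, against 25.8% of all genes: Egfr was higher in Müller glia (4.39 ± 0.198), and Nrg2 (-2.97 ± 0.158) and Erbb4 (-2.81 ± 0.243) were higher in astrocytes. Erbb2 gave 0.97 ± 0.475 (adjusted p = 0.137, edgeR). The Müller sum in this comparison included a cluster rich in Fbln1 and Reln, described further below. It held 11.5% of the Müller nuclei, 90.4% of their Erbb4 UMIs and 29.4% of their Nrg2 UMIs. The other Müller nuclei had 4.66 to 13.3 CPM of Erbb4 over the libraries, against a mean of 524 CPM in astrocytes. The comparison without this cluster was not run.

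The effect of IL-27 on the 8 genes was then tested per type, over 65 combinations of gene and type that passed the filter on low counts of 128 possible ones. None passed an adjusted p of 0.05 in edgeR's quasi-likelihood test (smallest 0.135), against 0.00513% of all gene and type combinations, and 3 of 65 had an unadjusted p under 0.05, where 3.96% of all combinations did. Estimates were small: 61 of 65 lay within 0.5 on the log2 scale, 36 were positive and 29 negative, and the median was 0.02. The CPM of the 3 IL-27 and 3 saline libraries did not overlap in 5 of the 65 combinations (7.69%), where 9.25% of all combinations did not. Summed over all nuclei, Egfr had 83.8, 75.7 and 81.2 CPM with saline and 71.7, 73.8 and 70.6 CPM with IL-27 (log2 fold change -0.16 ± 0.0690, unadjusted p = 0.0438, edgeR), a sum in which fewer nuclei of a type and less RNA per nucleus cannot be told apart. Within types the Egfr estimates ran from -0.04 to 0.25, and Müller nuclei numbered 1136, 998 and 870 in the saline and 799, 828 and 715 in the IL-27 libraries. DESeq2 made no call among the 65 either, and its share of calls over all genes is not given here.

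The intervals were narrow where the genes were abundant. In AII-like nuclei, the 95% interval of the Nrg1 log2 fold change ran from 0.01 to 0.15 around an estimate of 0.08 (unadjusted p = 0.0369, edgeR). Each IL-27 library lay above each saline library, and 9.65% of all genes tested in these nuclei had groups that did not overlap. Nrg3 in the same nuclei had 1450, 1392 and 1354 CPM with saline and 1622, 1532 and 1521 CPM with IL-27, an estimate of 0.17 with an interval of 0.04 to 0.30 (unadjusted p = 0.0102, adjusted p = 0.999, edgeR). Nrg3 in RGC had an interval of -0.09 to 0.22 and Nrg1 in horizontal nuclei one of -0.11 to 0.24. Erbb4 gave 0.14 ± 0.0989 in other GABAergic amacrine nuclei and Egfr gave -0.02 ± 0.0909 in them. Nrg4 in cones had 12.4, 14.0 and 20.9 CPM with saline and 24.0, 18.4 and 25.2 CPM with IL-27, from 161 UMIs, an estimate of 0.54 ± 0.266 (unadjusted p = 0.0567, edgeR) with overlapping groups. In Müller glia Nrg4 had 3.17, 3.36 and 3.66 CPM with saline and 2.95, 2.14 and 1.30 CPM with IL-27, from 66 UMIs. The groups did not overlap (-0.62 ± 0.367, unadjusted p = 0.123, edgeR), as for 13.8% of all genes tested in Müller glia. Erbb2 could be tested in Müller glia alone (0.17 ± 0.167) and Erbb3 in no type.

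**Figure D4:**
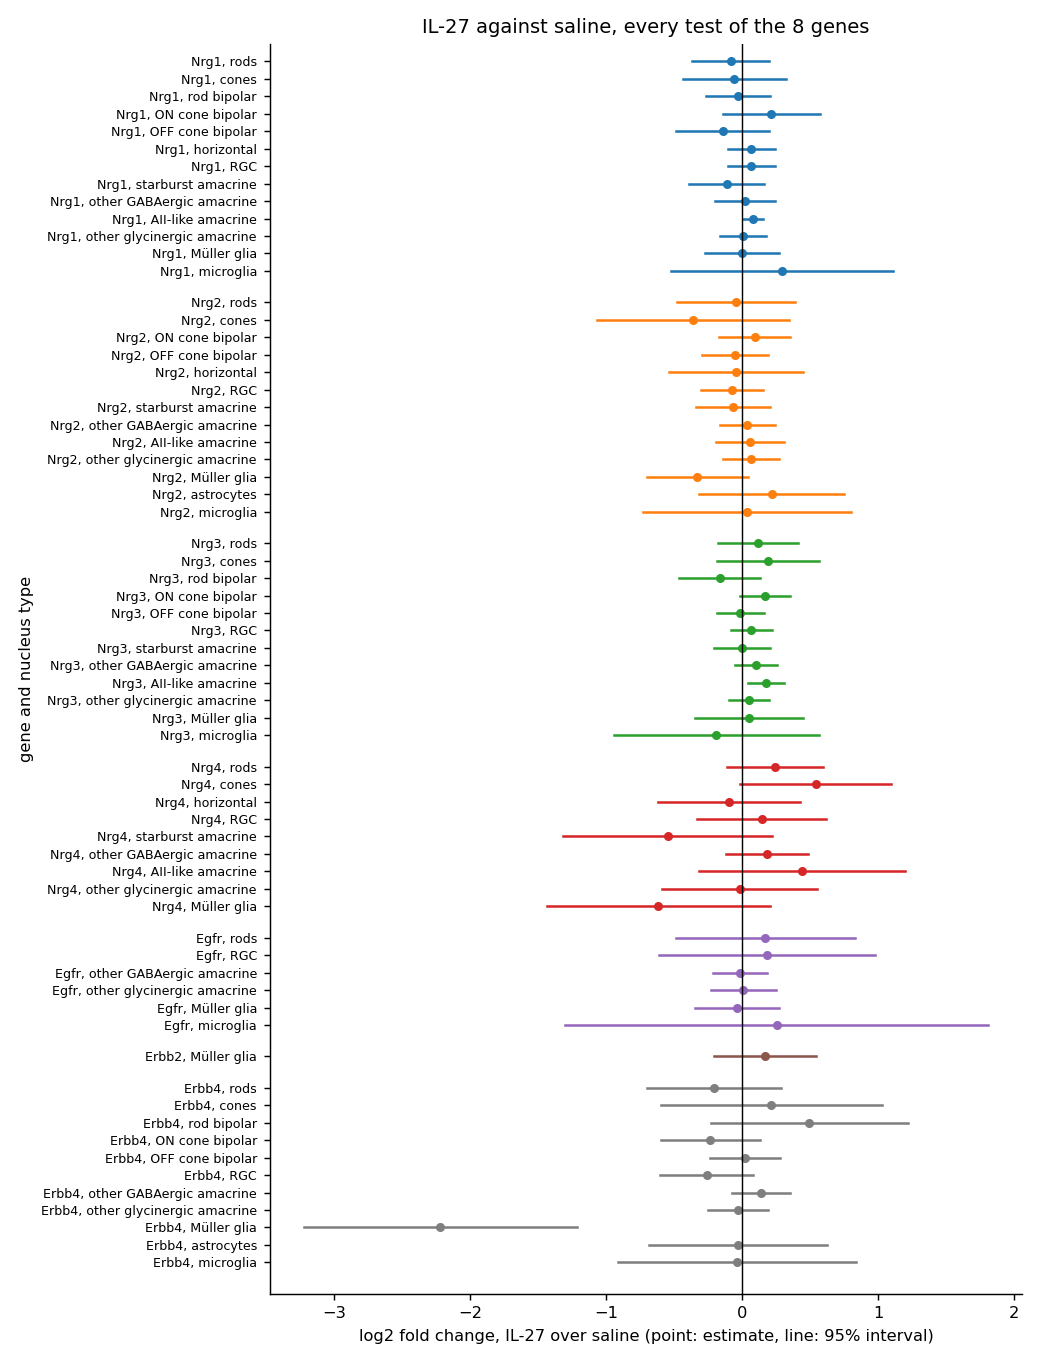
Log2 fold change of IL-27 over saline for each of the 65 combinations of gene and nucleus type that could be tested (edgeR estimate as a point, 95% interval as a line, colours mark genes). Most estimates lie within 0.5 of 0, and Erbb4 in Müller glia lies at -2.22.

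The 1 large estimate was Erbb4 in nuclei named Müller glia. The saline libraries 1, 2 and 6 gave 131, 176 and 96.2 CPM. The IL-27 libraries 4, 5 and 10 gave 16.8, 12.6 and 58.0 CPM. The groups thus did not overlap, as for 13.8% of all genes tested in these nuclei. The log2 fold change was -2.22 ± 0.448 (SE, unadjusted p = 0.000622, adjusted p = 0.135, edgeR), and 0.036% of all genes passed the threshold in these nuclei. It passed when library 10 of the IL-27 group was left out (-3.16, adjusted p = 0.000151, edgeR) and when the filter on low counts was dropped (adjusted p = 9.23e-07, edgeR). The share of all genes passing in these fits is not given here, so these calls are not read as particular to Erbb4. Erbb4 did not pass with DESeq2.

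In 4 of the 6 libraries most of this Erbb4 RNA was in 1 of 4 subclusters, the one with the highest levels of Fbln1, Frmpd4, Reln and Csmd3. The study took these 4 genes from the same libraries, so a difference in the share of this cluster between the groups is not independent evidence. The cluster held 97.0%, 96.3% and 87.4% of the Müller Erbb4 UMIs in saline libraries 1, 2 and 6, and 26.3%, 10.6% and 87.2% in IL-27 libraries 4, 5 and 10. The cluster made up 20.0%, 21.6% and 11.0% of Müller nuclei after saline and 1.75%, 0.725% and 12.0% after IL-27, with exact binomial intervals that cover counting error only (17.7 to 22.4% for saline library 1 and 0.266 to 1.57% for IL-27 library 5). The shares of the 2 groups overlapped through IL-27 library 10, and an exact permutation test gave p = 0.2, where 0.1 is the smallest p that 3 against 3 allows. Without this cluster, Erbb4 in the remaining Müller nuclei was 4.66, 8.01 and 13.3 CPM with saline and 12.6, 11.3 and 8.23 CPM with IL-27, a log2 fold change of 0.36 (adjusted p = 0.982, edgeR), and fits added after the data were seen gave 0.03 to 0.79. Inside the cluster the IL-27 libraries gave 369, 246 and 536 CPM, from 15, 5 and 156 UMIs, against 852, 894 and 934 CPM with saline.

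Several Müller markers were low in this cluster. It held 201, 202 and 86 of the summed nuclei in saline libraries 1, 2 and 6, and 11, 4 and 81 in IL-27 libraries 4, 5 and 10. Each library has equal weight in the means below, although levels in IL-27 libraries 4 and 5 rest on few nuclei. Of 8 Müller markers, 6 had a lower mean in the cluster than in the other Müller nuclei and 4 were lower in every library. Apoe (1527 ± 331 against 1405 ± 279 CPM) and Vim (85.4 ± 29.9 against 59.7 ± 10.7 CPM) had the higher means, and Clu (442 ± 181 against 482 ± 84.0 CPM) and Glul (613 ± 213 against 996 ± 217 CPM) were lower by less than the others. Rlbp1, the retinoid carrier of Müller glia, stood at 44.2 ± 22.8 against 340 ± 60.7 CPM, Aqp4, their water channel, at 91.4 ± 47.4 against 557 ± 30.7 CPM, and Slc1a3, their glutamate transporter, at 330 ± 119 against 1236 ± 95.3 CPM. Its leading genes included Mecom, Slc16a12 and Optc, the last encoding opticin, a proteoglycan of the vitreous. Of 6 astrocyte markers 5 had a lower mean in it than in the other Müller nuclei, and Gfap stood at 34.7 ± 34.2 CPM and Pax2 at up to 3.44 CPM in 1 library, against 791 ± 133 and 784 ± 84.6 CPM in astrocytes. Of 6 markers of the retinal pigment epithelium, 3 had a higher and 3 a lower mean in it, with Rpe65 at 0.221 ± 0.542 CPM. Within the 3 saline libraries, in a comparison added after the data were seen, 4 of 6 genes tested differed between this cluster and the other Müller nuclei, against 42.4% of all genes. Erbb4 was higher by 6.64 ± 0.159 on the log2 scale and Nrg2 by 1.95 ± 0.175, and Nrg1 (-1.56 ± 0.201) and Egfr (-1.17 ± 0.107) were lower, with an adjusted p of 8.06e-08 or less for each (edgeR). Erbb2 gave -0.00 ± 0.353 and Nrg3 0.26 ± 0.241.

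**Figure D5:**
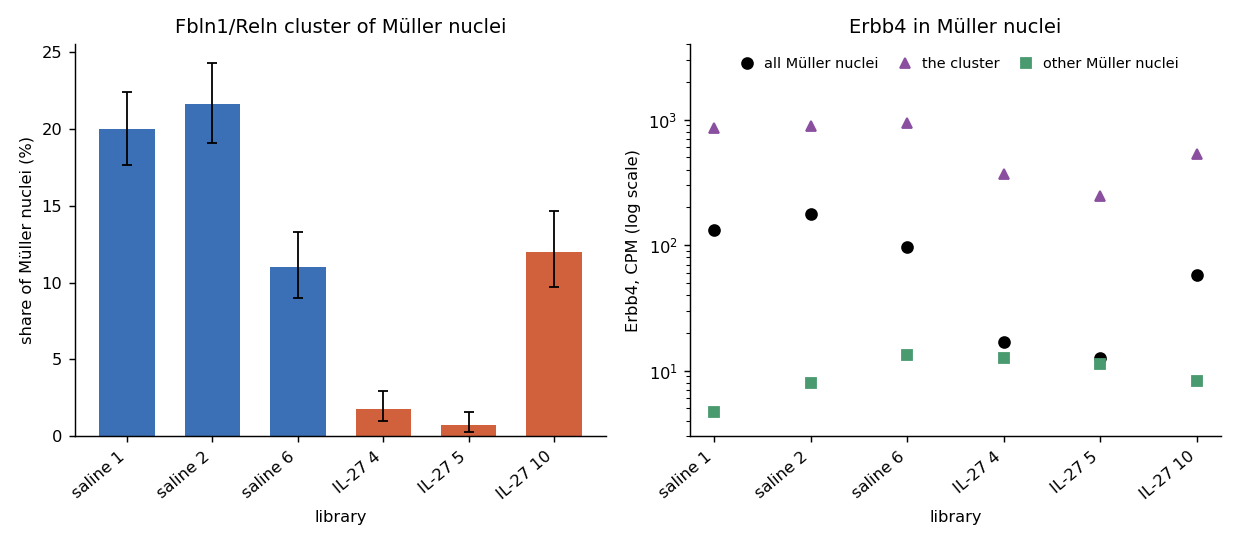
Left, share of the Fbln1- and Reln-rich cluster among Müller nuclei in each library (bars from 0, whiskers exact 95% binomial intervals, blue saline and orange IL-27). Right, Erbb4 in the same libraries (CPM, log axis) over all Müller nuclei, in the cluster and in the other Müller nuclei, which lie between 4.66 and 13.3 CPM in both groups.

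The other 72 genes of the EGF and ErbB pathway list gave no call between IL-27 and saline in any type with edgeR. Of all gene and type combinations, 0.00513% were called, and 16 to 66 genes of the list were tested per type. Their median log2 fold change in Müller glia was 0.04 beside 0.00 over all genes, with 41 of 66 estimates above 0, and 4 of the 66 had an unadjusted p under 0.05, where 9.33% of all genes did. Dlg2, a scaffold of synaptic and ErbB4 complexes, had -0.68 ± 0.158 in Müller glia (adjusted p = 0.189, edgeR) and passed the threshold with DESeq2 (adjusted p = 0.00562). The share of all genes passing with DESeq2 is not given here. In fits of Müller glia without the Fbln1- and Reln-rich cluster, Dlg2 passed with neither edgeR nor DESeq2. Errfi1, an inhibitor of the EGFR kinase, had 1.99 ± 0.495 in the 104 pericyte nuclei (adjusted p = 0.109, edgeR). Among the EGF-family ligands, Egf was highest in cones (83.4 ± 21.5 CPM), Btc, the gene of betacellulin, in rods (64.8 ± 5.02 CPM), Tgfa in starburst amacrine (48.8 ± 7.01 CPM), Hbegf in other GABAergic amacrine (25.5 ± 0.655 CPM) and Areg in ON cone bipolar nuclei (4.76 ± 2.67 CPM). Epgn and Ereg were highest in OFF cone bipolar nuclei and Müller glia, from 5 and 3 UMIs.

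By the correlation of mean log2(CPM + 1) over the 16 types among 15260 genes, which is a description and rests on types that share libraries, the genes most like each member were as follows. Nrg1 was followed most closely by Iglon5 (r = 0.945), Gm28050 (0.918) and Tmem25 (0.915). The 3 genes closest to Nrg3, Gm20642 (0.991), Nrg3os (0.985) and Gm20641 (0.970), all overlap its span on the opposite strand. The same held for 4930471G03Rik beside Nrg2 (0.952) and Egfros beside Egfr (0.973). Whether counting used the strand is not given in the sources used here, and a sharing of reads within these pairs was not tested. Nrg2 was followed next by Cacnb4 (0.942) and Fat3 (0.918), and Egfr by Ltbp1 (0.940) and Gpc3 (0.929). Erbb4 was most like Kcnd3, a potassium channel gene (0.914), Kcnd3os (0.900) and Kcna6 (0.899), Nrg4 most like Gnaz (0.892), Tmem266 (0.873) and Acat1 (0.864), Erbb2 most like Sardh (0.946), Olfml2a (0.944) and Strn3 (0.938), and Erbb3, at its low counts, most like Amn1 (0.862), A630072M18Rik (0.858) and Frzb (0.848).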

How the data were processed

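The deposited files hold UMI counts per gene and nucleus, made by the authors with Cell Ranger from 10x Genomics 3′ nuclear libraries; the submitters' processing notes give version 9.0.1, the matrix headers 8.0.1. The genome build is not given in the sources used here. Nuclei with over 500 UMIs, at least 200 genes and under 5% mitochondrial UMIs were kept, and doublets were removed with Scrublet in scanpy 1.11.5 at an expected rate of 8%. Louvain clusters (igraph 0.11.9, resolution 0.25, 25 components, 2000 variable genes) were named from at least 3 fixed markers. Bipolar and amacrine nuclei were clustered again at 0.5. Müller nuclei were clustered again at 0.25, with 4000 variable genes and 10 components, and also without Fbln1, Frmpd4, Reln and Csmd3. UMIs were summed per library and type, leaving out nuclei whose log2 depth lay more than 2 MADs (median absolute deviations) from the median of their type, and tested with edgeR 4.0.16 (TMM, quasi-likelihood, minimum count 10, Benjamini-Hochberg over all genes), with the library as a block between types. DESeq2 1.42.0 was an alternative; the study used DESeq2 on summed counts and edgeR on single nuclei. The script was tested on simulated counts. Log scales used a pseudocount of 1 CPM. Named were all 8 genes, pathway genes past the threshold, the 7 EGF ligands and 3 most similar genes per member (at least 100 UMIs, and 10 CPM in 1 type). The members and lists were chosen with earlier results of these data known. Dlg2, Errfi1 and the subcluster genes were named after their values were seen.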

Additional observations from a re-analysis of the deposited data

Results flagged for a closer look

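Groups of 3 libraries are too small for a test of outlying samples, and none of the 8 genes had groups that failed to overlap in opposite directions in different types. One signal lay in nuclei outside the named types. An unnamed bipolar subcluster of 226 nuclei led by Kirrel3, Meis2 and Kcnd2 had 7353 ± 716 CPM of Nrg3 (SD, n = 6), above the highest mean of any named type, 4956 CPM in RGC. Of the named subclusters, the GABAergic amacrine one with the highest Nrg3 level, with Maf and Dytn among its leading genes, reached 7026 ± 482 CPM, within the spread of this value. Erbb4 was at 167 ± 58.6 CPM and Nrg1 at 23.6 ± 26.4 CPM in the same nuclei. It received no subclass name from the fixed markers.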

How the results depend on the processing

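No paired analysis was possible because the groups share no replicate numbers. The count of members called between IL-27 and saline was 0, rose to 2 with no filter on low counts (Erbb4 in Müller glia, Nrg1 in astrocytes at -1.58, where saline library 6 held 77 of its 113 UMIs) and ranged from 0 to 1 when single libraries were left out, with Erbb4 called without IL-27 library 10 (-3.16). The pathway list went from 0 to 1 with DESeq2 and to 1 with no filter, both times Dlg2 in Müller glia, and ranged from 0 to 3 without single libraries: Dlg2, Nck2 and, in pericytes, Errfi1 without IL-27 library 10, and Errfi1 and Dlg2 in pericytes without saline library 6. Erbb4 in Müller glia changed sign without the Fbln1- and Reln-rich cluster (0.36), also, in fits added after the data were seen, with DESeq2 (0.33) and with single libraries left out (0.03 to 0.79: 0.03, 0.33 and 0.79 without saline 1, 2 and 6, and 0.23, 0.32 and 0.52 without IL-27 4, 5 and 10). For the alternatives in this paragraph, the share of all genes called is not given here. The counts of calls are therefore not read as particular to the 8 genes or the list. Of the between-type differences called, 34 results were recomputed under 346 alternatives, of which 343 kept direction and call. The exceptions were in cones against rods, where Nrg1 turned to 0.10 with all nuclei summed and Erbb4 lost its call with DESeq2 (adjusted p = 0.0891) and without saline library 6 (adjusted p = 0.0550, edgeR); without doublet removal 5 genes were called there. Without doublet removal, differences within amacrine types also shrank or grew by over 1.5 times, as for Egfr (-2.70) in starburst nuclei; the cause was not tested. In nuclei thinned to 1000 UMIs, 5 of the 8 genes kept their leading type, although for Nrg1 the measure was tied at 100% in AII-like and horizontal nuclei and shows no lead; Nrg2 went to starburst amacrine (27.6% against 27.5% of nuclei), Erbb2 to endothelial and Erbb3 to astrocyte nuclei. With 5 libraries the sign-flip test cannot reach an adjusted p under 0.05. Without doublet removal, no separate endothelial class was named. Depth limits Erbb2, Erbb3 and Nrg4, and the rare vascular and glial types.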

Other observations

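Among the amacrine nuclei left without a subclass name, 2 further subclusters had high levels of 1 ligand or receptor. Nuclei led by Kit and Cartpt (200 nuclei) had 10569 ± 847 CPM of Nrg1 (SD, n = 6) and 9.55 ± 7.96 CPM of Erbb4. Nuclei led by Klhl14 and Hmcn1 (243 nuclei) had 1633 ± 219 CPM of Erbb4, 231 ± 72.3 CPM of Egfr and 1090 ± 186 CPM of Nrg1. Both were chosen after their values were seen, and neither entered the comparisons between types.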
